A study of Zea mays with 4 samples.

Results

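Catalases and superoxide dismutases (SODs), the enzymes that remove hydrogen peroxide and superoxide, were followed in maize internodes with lowered cinnamoyl-CoA reductase (CCR). The probe sets were chosen by gene name alone: the symbol in the array's annotation, or a RefSeq symbol or synonym of the same gene, had to be cat or sod followed by a number and an optional letter. This found 9 of the 17734 probe sets on the array, for 6 of the 1108 genes with an annotated probe set of their own: the catalase genes cat1 (3 probe sets), cat2 (1) and CAT3 (1), and the SOD genes sod2 (2), sod3 (1) and Sod4A (1). Of the 7 RefSeq genes with such a name, 2 carry a gene identifier that the annotation pairs with no probe set. One of these is sod4, which is not analysed here. The other has the synonym Sod4A, so the Sod4A probe set was identified by its symbol.

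Superoxide is made wherever electrons leak to oxygen, and at the plasma membrane and cell wall by oxidases. SODs turn it into hydrogen peroxide, and catalases split hydrogen peroxide into water and oxygen, mostly in peroxisomes. Hydrogen peroxide is also the substrate with which wall peroxidases couple lignin monomers, so the supply and removal of peroxide is of interest in a stem in which lignin synthesis is altered.

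The arrays were Affymetrix maize arrays, hybridised with RNA from young, still stacked internodes taken when plants had 6 to 7 leaves. The CCR mutant group (2 arrays, replicates 1 and 2) had lowered CCR, an enzyme that makes lignin precursors; its RNA came from single extracts of 144 and 182 µg, with no treatment named. In the WS group (2 arrays), each sample's own extract of 185 or 215 µg was pooled with 3 further extracts of 1 µg, and the labels record drought, with a time of 36 h and an REW between 20 and 30%. The sources used here do not say what WS and REW stand for, nor the kind of mutation or the genetic background. Genotype, pooling and the recorded treatment coincide, so their parts in any difference cannot be told apart. Both groups had days of 16 h at 25 °C and nights of 8 h at 22 °C. As the labels do not tie the samples of a group to separate plants, the p-values rest on a spread between samples that may be only technical. In whole internodes, fewer cells of a type and less RNA per cell cannot be told apart.

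On the 4 arrays, 11038 to 11056 probe sets reached a log2 value of 4, and the medians over all probe sets lay between 6.56 and 6.62. Precision is limited by having 2 arrays a group. Both annotated CCR genes were looked at, and the sources used here do not say which was lowered. The probe set of cncr1, the brighter one, had log2 values of 8.59 and 9.14 in the CCR mutant, against 10.99 and 10.13 in WS. The difference of -1.70 (SE 0.38) had an unadjusted limma p of 0.0135 and a limma adjusted p of 0.68. Among all tested probe sets, 0.713% differed by more. The probe set of cncr2 differed by -0.10 (SE 0.39). Markers chosen for the tissue were present: the mean log2 level of 7 green leaf genes was 11.1 on both CCR mutant arrays and 10.7 to 11.4 in WS, and that of 4 secondary wall genes was 9.98 to 10.4 in the CCR mutant and 10.1 to 10.5 in WS. The mean level of 5 genes of dividing cells was 6.72 to 6.94 in the CCR mutant and 6.98 to 7.46 in WS. That of both shoot meristem genes matched, kn1 and lg3, was 6.89 to 6.95 in the CCR mutant and 6.85 to 7.66 in WS. With limma none of these markers passed the test described below, and their part in the results below was not tested except where a value is given.

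Signal was found for 5 of the 6 genes, and 0 of them passed the test between the groups. cat1, CAT3, sod2, sod3 and Sod4A each had a probe set well above the background. Background was read from 66 reporter probe sets, whose target genes maize does not have. The level used, 3.43, was set as the highest log2 value of 65 of them on any array, with the brightest reporter probe set left out. cat2 had no signal above that level. Of the 9 probe sets, 6 reached a log2 value of 4 on at least 2 of the 4 arrays and were tested with limma, together with all other probe sets that did, and the other 3 lay near background on every array. After Benjamini-Hochberg adjustment over the 11085 tested probe sets, 0 of the 6 passed a threshold of 0.05 (adjusted p 0.774 to 1), where 0.153% of all tested probe sets passed. At an unadjusted p under 0.05 there was 1 of the 6, a probe set of cat1, where 6.43% of all tested probe sets reached it. The brightness of different probe sets also depends on their probes, so the levels below are not an order of transcript abundance.

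**Figure D1:**
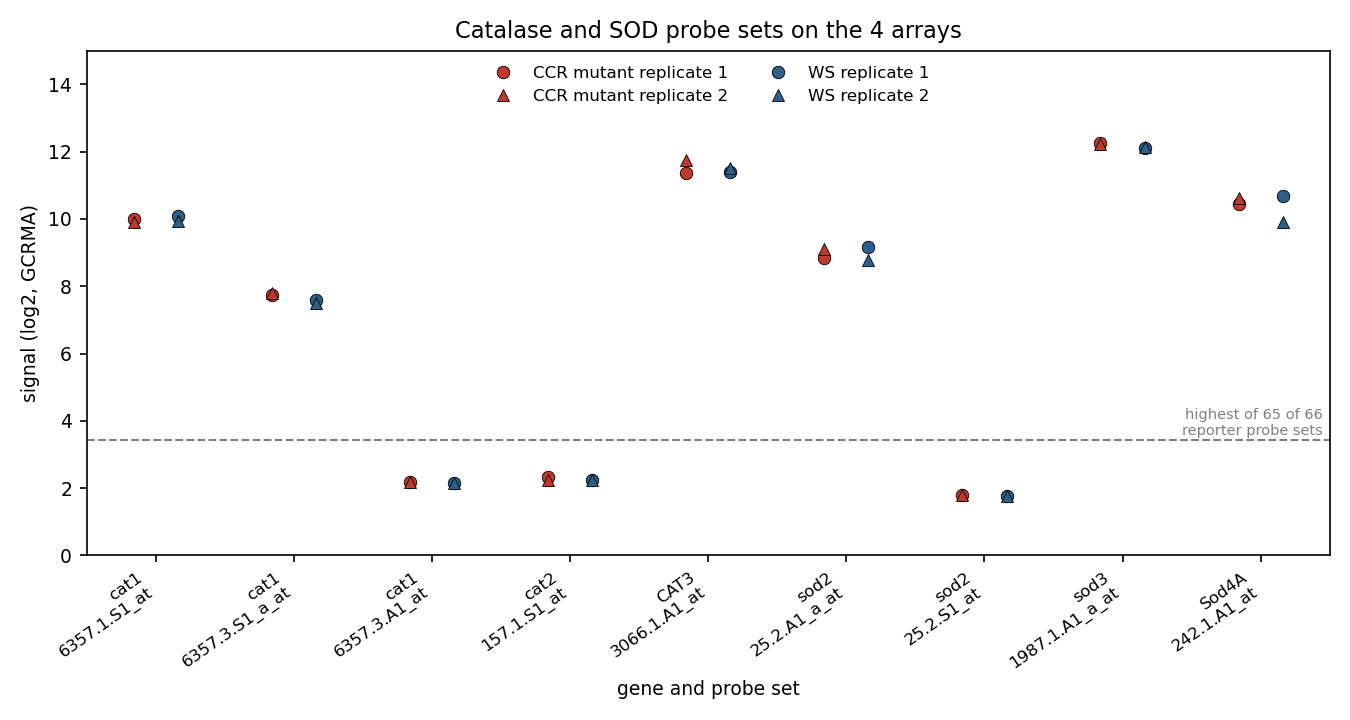
Log2 signal (GCRMA) of the 9 catalase and SOD probe sets, with 1 point per array, CCR mutant in red and WS in blue. The 6 tested probe sets lie between 7.49 and 12.27, and the other 3, for cat1, cat2 and sod2, lie below the dashed line at 3.43, the highest value of 65 of the 66 reporter probe sets.

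CAT3 and cat1 were the catalases with signal in the internode. CAT3 encodes a catalase that in maize has been found with mitochondria and whose transcript follows a daily rhythm. Its probe set had log2 values of 11.36 and 11.75 in the CCR mutant, against 11.39 and 11.52 in WS. The WS arrays lay between the CCR mutant arrays, so the groups overlapped. CAT3 averaged 11.56 ± 0.28 in the CCR mutant and 11.46 ± 0.09 in WS (SD, n = 2 each), a difference of 0.10 (SE 0.17). The 95% confidence interval ran from 0.770 to 1.49 times the WS signal, and the limma adjusted p was 0.916. Without CCR mutant replicate 2 the difference was -0.095.

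cat1 encodes a peroxisomal catalase known in maize from embryos and from its response to abscisic acid. Its brightest probe set had log2 values of 10.00 and 9.91 in the CCR mutant, against 10.10 and 9.95 in WS. The groups overlapped, and the difference of -0.07 (SE 0.10) was smaller than the gap of 0.15 between the WS arrays. The 95% confidence interval, 0.788 to 1.15 times the WS signal, was among the narrower ones of the 6 tested probe sets, and the limma adjusted p was 0.891. Without WS replicate 1 the difference was 0.005.

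A second, dimmer cat1 probe set had log2 values of 7.74 and 7.79 in the CCR mutant, against 7.58 and 7.49 in WS. Both CCR mutant arrays lay above both WS arrays. The difference of 0.23 (SE 0.08, 1.17 times the WS signal, 95% confidence interval 1.00 to 1.37 times) had an unadjusted p of 0.0494 and a limma adjusted p of 0.774. Among all tested probe sets 21.8% differed by more.

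The relation between both cat1 probe sets can be read on each array, as the log2 value of the first minus that of the second. It was 2.26 and 2.12 in the CCR mutant, against 2.52 and 2.46 in WS. The groups did not overlap, and the contrast was lower in the CCR mutant by 0.30 on average. Among all tested probe sets, taken singly, 36.5% did not overlap, and the share among pairs of probe sets was not computed. The contrast was not among the planned comparisons. An exact two-sided permutation test over the 4 samples gave p = 0.333, the smallest that 2 arrays against 2 allow. Any contrast without overlap gives this p, so the test adds nothing to the lack of overlap. The annotation names a different sequence record for each probe set, and whether they read different forms of the transcript was not tested. The mean of both gave a cat1 difference of 0.08 (SE 0.08).

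cat2 encodes the catalase known from maize leaf bundle sheath cells and from the scutellum after germination. Its 1 probe set had log2 values of 2.32 and 2.26 in the CCR mutant, against 2.24 and 2.24 in WS. All 4 values lay below the reporter level of 3.43, while the mean of the green leaf genes was at least 10.7 on every array. Values at this level do not show that the transcript was absent. Both CCR mutant arrays lay above both WS arrays, by 0.05 on average. The same held for 85.1% of the 6470 probe sets that were not tested, whose median difference was 0.03, so at this level arrays of the CCR mutant read slightly higher for most probe sets.

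The SOD genes with signal were sod3, Sod4A and sod2. sod3 encodes the manganese SOD of mitochondria. Its probe set had log2 values of 12.27 and 12.24 in the CCR mutant, against 12.11 and 12.13 in WS. Both groups were tight, with replicate gaps of 0.03 in the CCR mutant and 0.02 in WS, and they did not overlap. The difference of 0.14 (SE 0.07) corresponds to 1.10 times the WS signal, and its 95% confidence interval of 0.953 to 1.27 times was the narrowest of the 6 on the log2 scale. The limma adjusted p was 0.801, and 39.5% of all tested probe sets differed by more. In limma the spread of a probe set is drawn towards that of all probe sets, so the SE is larger than those replicate gaps alone would give.

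Sod4A encodes a cytosolic copper/zinc SOD. Its probe set had log2 values of 10.45 and 10.61 in the CCR mutant, against 10.67 and 9.92 in WS. The WS arrays lay on either side of both CCR mutant arrays, and their gap of 0.75 was the widest within a group among the tested catalase and SOD probe sets. Sod4A averaged 10.53 ± 0.11 in the CCR mutant and 10.30 ± 0.53 in WS (SD, n = 2 each), a difference of 0.24 (SE 0.29). The 95% confidence interval ran from 0.661 to 2.10 times the WS signal, and the limma adjusted p was 0.884. Without WS replicate 2 the difference was -0.14, and without WS replicate 1 it was 0.61. WS replicate 2 was also the array with the lowest mean of the green leaf genes, at 10.7 against 11.4 on WS replicate 1. Not all of them moved: cab-m7 had 13.52 on WS replicate 1 and 13.50 on WS replicate 2. The same array had the lowest mean of the shoot meristem genes, 6.85, and the highest of the genes of dividing cells, 7.46. The part of these in the Sod4A value was not tested.

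sod2 encodes another cytosolic copper/zinc SOD. Its brighter probe set had log2 values of 8.85 and 9.12 in the CCR mutant, against 9.18 and 8.79 in WS. The group means were the same, 8.99 ± 0.19 in the CCR mutant and 8.99 ± 0.28 in WS (SD, n = 2 each). The difference was 0.00 (SE 0.19), with a 95% confidence interval of 0.688 to 1.45 times the WS signal and a limma adjusted p of 1. Equal means over 2 arrays do not show equal transcript levels beyond that interval.

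**Figure D2:**
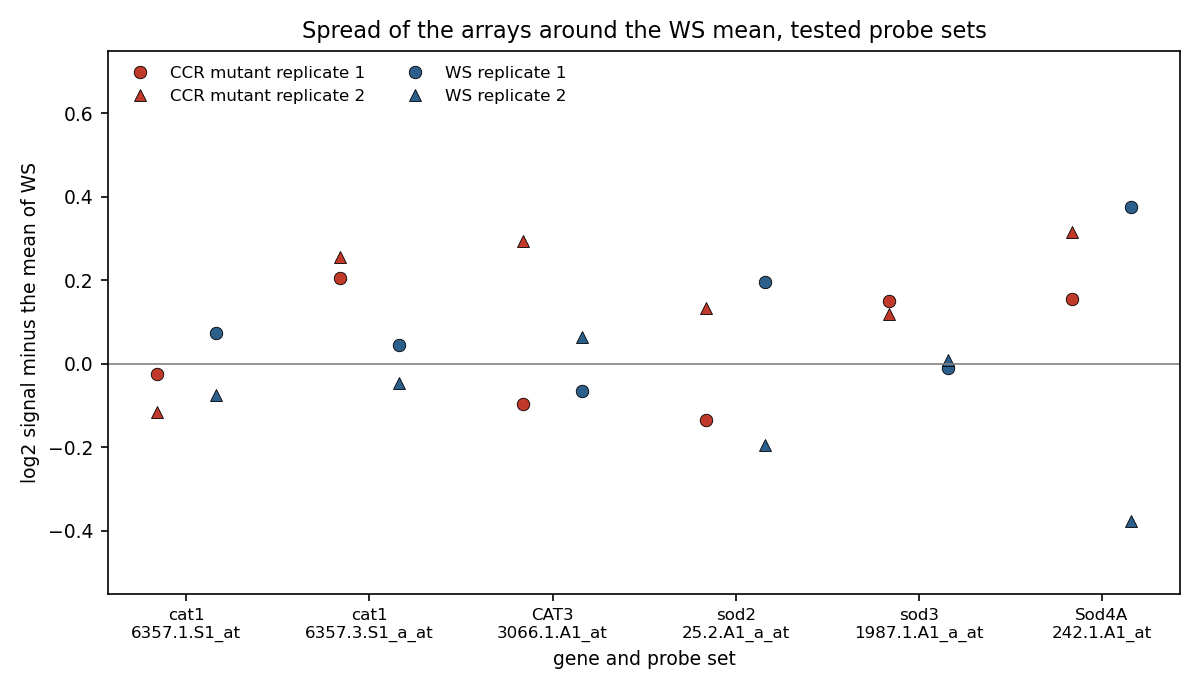
Log2 signal of each array minus the mean of the WS arrays, for the 6 tested catalase and SOD probe sets, with CCR mutant in red left of WS in blue. The groups separate for sod3 and for the second cat1 probe set and overlap for the other 4, with the widest gap, 0.75, between the WS arrays for Sod4A.

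The 6 tested probe sets included 4 with a higher mean in the CCR mutant, 1 with a lower mean and 1 with equal means. Their median difference was 0.12, beside -0.045 over all tested probe sets, of which 4065 had a higher and 6866 a lower mean in the CCR mutant. In 4 of the 6 the difference was smaller than the larger of the replicate gaps, as it was in 8247 of all 11085. No overlap between the groups was seen in 2 of the 6, sod3 and the second cat1 probe set, where 36.5% of all tested probe sets did not overlap. Both were higher in the CCR mutant, as were 13.0% of all tested probe sets. No difference among the 6 was larger than 0.24 on the log2 scale, 1.18 times the WS signal, although the interval of Sod4A reached 2.10 times.

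**Figure D3:**
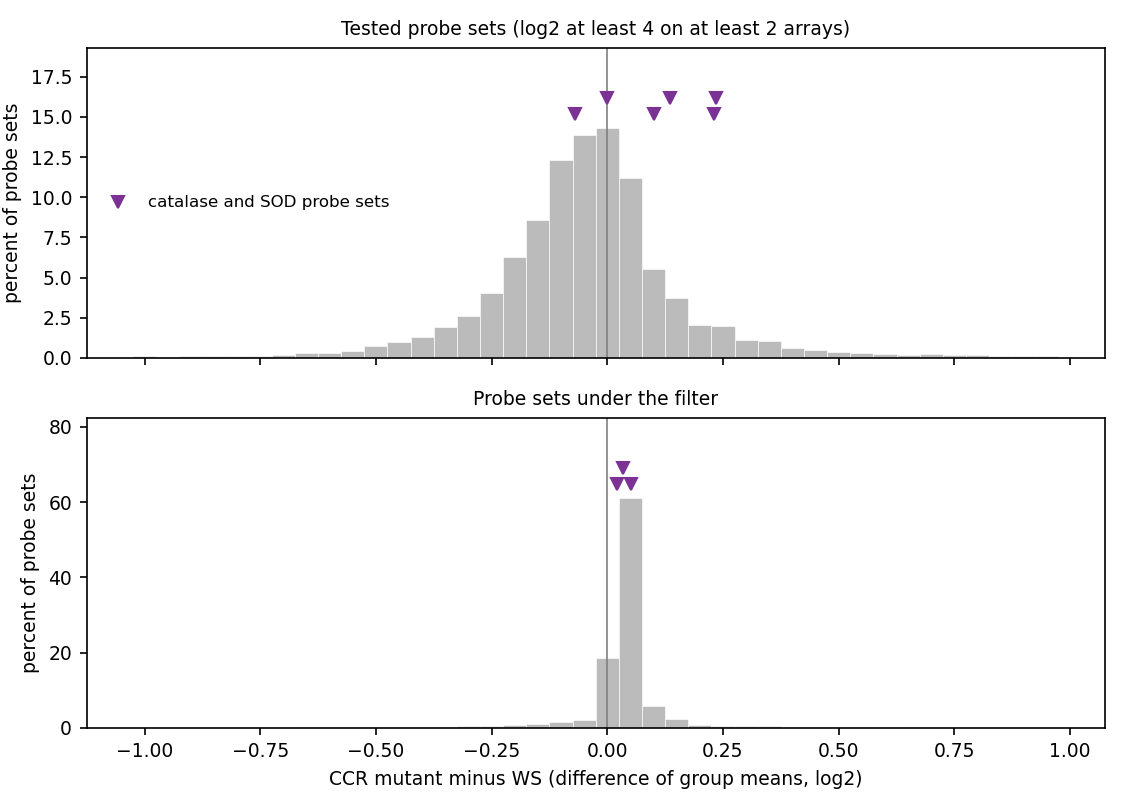
Differences of group means, CCR mutant minus WS on the log2 scale, for tested probe sets (top) and for probe sets under the filter (bottom), as the percent of each set in bins; triangles mark the catalase and SOD probe sets, at heights without meaning. The tested members lie between -0.07 and 0.24, and the 3 members under the filter lie between 0.02 and 0.05, where most probe sets near background lie; 170 tested and 61 other probe sets fall outside the axis.

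Both cat1 and sod2 also had a probe set without signal. That of cat1 had log2 values of 2.19 and 2.17 in the CCR mutant, against 2.14 and 2.15 in WS. That of sod2 had log2 values of 1.80 and 1.80 in the CCR mutant, against 1.77 and 1.78 in WS. Each shares its sequence record with another, bright probe set of the same gene (for cat1 the dimmer of those described above), and the names differ in A1 and S1. For cat1 the bright one of the pair is S1, and for sod2 it is A1. Across the array, 1629 pairs of probe sets have names that differ in this letter. In 824 of them (50.6%) 1 probe set was at or above 4 on every array and the other below it on every array. A1 was bright in 510 of these and S1 in 314. In 17 pairs both were bright on every array, and in 745 both were below 4 on every array. The sources used here do not explain the letters, and the dark cat1 and sod2 probe sets were not counted against the bright ones.

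Other genes of peroxide removal, metal binding and peroxisome metabolism, whose proteins lie in several compartments, were looked at beside them. The list held 14 probe sets for 11 genes, of which 8 probe sets for 8 genes were tested. With limma 0 of the 8 passed, where 0.153% of all tested probe sets passed. At an unadjusted p under 0.05 there were 0 of the 8, where 6.43% of all tested probe sets reached it. The mean in the CCR mutant was higher for 5 and lower for 3, with a median difference of 0.06. Over all tested probe sets 4065 were higher and 6866 lower, with a median of -0.045. In all 8 the difference was smaller than the larger of the replicate gaps, as it was in 8247 of all 11085.

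In the ascorbate and glutathione cycle, which removes peroxide with ascorbate as reductant, the ascorbate peroxidase gene apx2 had log2 values of 9.39 and 9.67 in the CCR mutant, against 9.62 and 9.71 in WS. Its difference of -0.14 (SE 0.13) had a limma adjusted p of 0.851. The glutathione reductase gene gsr1, the other gene of the cycle measured here, differed by 0.06 (SE 0.09). Among the thioredoxins, which reduce thiol peroxidases, trxh1 differed by -0.08 (SE 0.09), trxh2 by -0.04 (SE 0.14) and trm1 by 0.06 (SE 0.10). The peroxiredoxin gene per-1 was near background at 1.81 and 1.80 in the CCR mutant, against 1.77 and 1.78 in WS.

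Among metal-binding proteins, the ferritin gene fer1, which stores iron that would otherwise react with peroxide, had log2 values of 12.81 and 12.88 in the CCR mutant, against 12.46 and 12.75 in WS. The groups did not overlap, as in 36.5% of all tested probe sets, and its difference of 0.24 (SE 0.13) had a limma adjusted p of 0.801. Without WS replicate 1 the difference was 0.095, and without WS replicate 2 it was 0.385. The second ferritin gene, fer2, differed by 0.07 (SE 0.10), and both probe sets of the metallothionein-like gene mtl2 were near background. Among peroxisome enzymes, the malate synthase gene mas1, of the glyoxylate cycle, had log2 values of 6.75 and 6.55 in the CCR mutant, against 6.75 and 5.79 in WS. Its difference of 0.38 (SE 0.37, limma adjusted p = 0.852) turned to -0.10 without WS replicate 2. Both probe sets of ICL, isocitrate lyase of the same cycle, were near background.

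**Figure D4:**
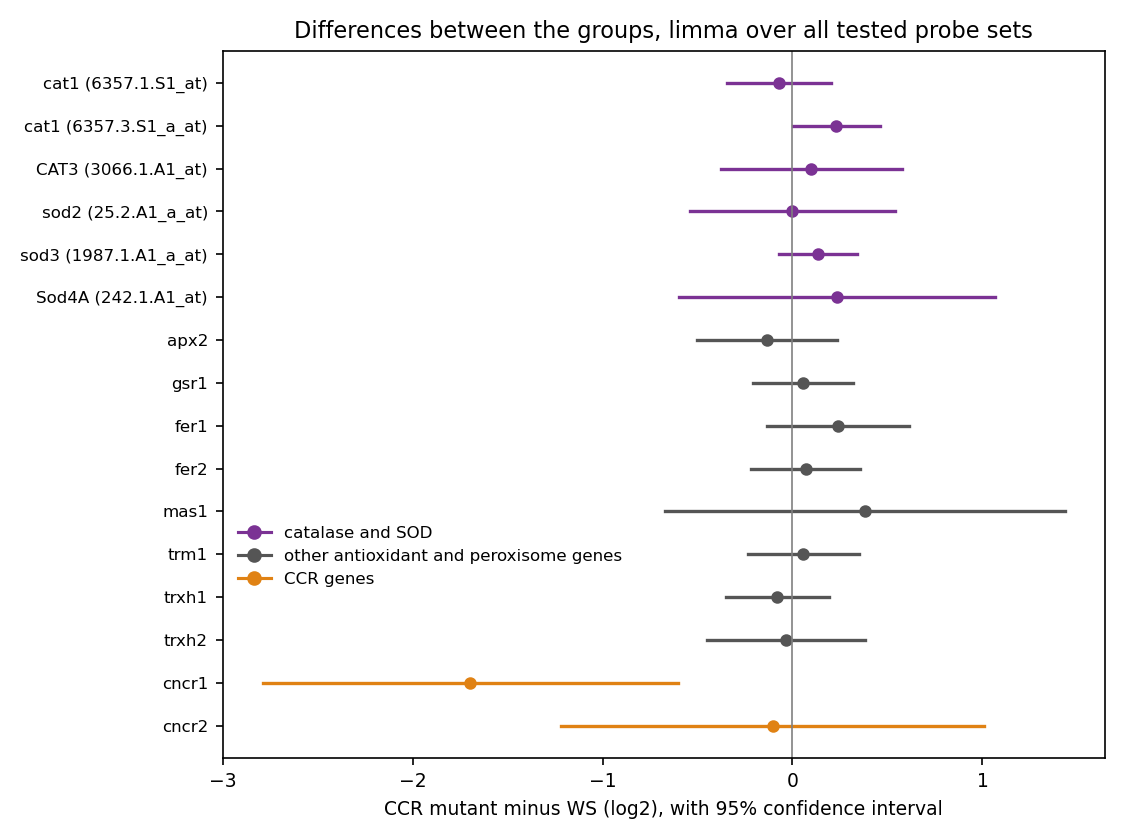
Difference of group means, CCR mutant minus WS on the log2 scale, with its 95% confidence interval from limma, for the 6 tested catalase and SOD probe sets (purple), the 8 tested probe sets of other antioxidant and peroxisome genes (grey) and the CCR genes (orange). The interval of the second cat1 probe set just clears 0 before adjustment for multiple testing, those of the other 5 catalase and SOD probe sets span 0, and cncr1 lies at -1.70.

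The genes whose pattern over the 4 arrays was most like that of CAT3 and Sod4A, the catalase and the SOD with the largest range, were sought among 861 tested probe sets of other named genes. Likeness was the root mean square difference between values centred on each probe set's own mean. With CAT3 the closest were AMA1 (0.015), lip15, a bZIP transcription factor gene (0.023), and CesA-8, a cellulose synthase gene (0.025). CesA-8, for example, had log2 values of 10.06 and 10.41 in the CCR mutant and 10.10 and 10.25 in WS. With Sod4A the closest were the expansin gene EXPA5 (0.07), IPP (0.072) and the Rubisco activase gene rca1 (0.072). rca1, itself among the green leaf genes above, had log2 values of 10.26 and 10.25 in the CCR mutant and 10.43 and 9.74 in WS. WS replicate 2 was its lowest array, as for Sod4A, which follows from picking it by likeness to Sod4A. Within 0.1 of CAT3 there were 32 of the 861, and within 0.1 of Sod4A 11. CAT3 ranged over 0.39 and Sod4A over 0.75, so the limit of 0.1 is looser for CAT3 and these counts cannot be compared.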

How the data were processed

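RNA of 4 internode samples was hybridised to 1 Affymetrix maize array each, with 20 µg of amplified RNA, per the labels' protocols. The authors deposited log2 values from GCRMA, as the submitters' processing notes name it, with no version. The base of the logarithm is not stated, and log2 is taken from the range of 1.12 to 14.11. GCRMA corrects background by probe base composition and normalizes by quantiles, so values near background depend on that correction. No further normalization was applied.

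Control probe sets (179, among them the 66 reporter probe sets) were left out. Probe sets with a log2 value of at least 4 on at least 2 arrays were tested with limma 3.58.1 in R 4.3.3 (lmFit, eBayes; 2 residual and 1.70 prior degrees of freedom), two-sided, as CCR mutant minus WS, with Benjamini-Hochberg adjustment. The test was tried on simulated data.

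Names come from an annotation of the array that gives 1 gene for 1452 probe sets, several for 1 and none for 16281, updated through RefSeq (Zm-B73-REFERENCE-NAM-5.0). As no build is given for the array, no coordinates are printed. The other antioxidant genes were planned as a match to gene descriptions; the tables hold symbols only, so they were matched by symbol after the annotation was read. The members and lists were chosen with earlier results of these data known. Named genes are all members, the CCR genes, passing genes of the other list or the 1 with the smallest p per role, and 3 genes most like CAT3 and Sod4A; gsr1, trxh2, trm1, per-1, fer2, mtl2, ICL and the markers named were added to complete the lists. Alternatives covered the filter, normalization, variance model, a replicate block, each array left out, and probe sets named _s_at or _x_at.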

Additional observations from a re-analysis of the deposited data

How the results depend on the processing

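With limma and every array kept, no catalase or SOD probe set passed as reported or under any alternative tried (0 called in each). At an unadjusted p under 0.05 there were 2 of 9 without a filter, where 1742 of all 17555 probe sets tested reached it. Otherwise there were 0 or 1, again with every array kept. The unadjusted limma p of the second cat1 probe set then ran from 0.0186 without a filter to 0.0936 with the replicate block. It was also above 0.05 with a variance trend (0.0684) and with robust variances (0.0516). The other antioxidant and peroxisome genes also had 0 called as reported and under each alternative with every array kept. Over all probe sets, 17 passed, against 9 without a filter, 0 with a replicate block and 0 with any 1 array left out; at an unadjusted p under 0.05 there were 774 with the block and 473 to 976 with an array left out. The replicate numbers pair the samples in no label. The gaps between replicates 1 and 2 of both groups correlated across probe sets with r = 0.35; probe sets are not independent. With the block no other call changed.

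Leaving out each array gave sod3 0.12 to 0.15 and the second cat1 probe set 0.185 to 0.275. The groups of both did not overlap, so leaving out an array could not turn their sign. For the first cat1 probe set it gave -0.145 to 0.005. It gave CAT3 -0.095 to 0.295 (-0.095 without CCR mutant replicate 2), Sod4A -0.14 to 0.61 and sod2 -0.195 to 0.195. For the others it gave apx2 -0.275 to 0.005, gsr1 -0.005 to 0.115, fer1 0.095 to 0.385, fer2 -0.015 to 0.155, mas1 -0.10 to 0.86, trm1 -0.044 to 0.157, trxh1 -0.15 to -0.01, trxh2 -0.20 to 0.13 and cncr2 -0.57 to 0.36. The sign also turned for cat1 as the mean of its probe sets (0.08) and for trxh2 with median-centred arrays (0.005). The cause was not tested. cncr1, whose groups did not overlap either, lay between -2.125 and -1.265 with an array left out. Having 2 arrays a group limits precision: the interval of Sod4A reaches from 0.661 to 2.10 times. Genotype, pooling and the recorded treatment coincide, which more arrays of this design would not change.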
